A study of Danio rerio with 18 samples.

Results

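Zebrafish (Danio rerio) mutant for scospondin were compared between 5 and 15 days post fertilisation (dpf), a period in which a larva uses up its yolk, begins to feed and grows towards the juvenile form. The comparison takes the 6 whole-body RNA-seq libraries of the mutants at these ages, chosen by their labels, out of 18 libraries in the series. Both groups carried the stl297 allele of scospondin, which the series calls hypomorphic, meaning that the gene works less well but is not lost. They were labelled maternal zygotic mutants, shortened here to MZ, so mother and larva were both mutant. The fish at 5 dpf gave 3 libraries and those at 15 dpf gave 3, with no treatment of either. The remaining libraries are 3 of MZ fish at 30 dpf and 9 of fish labelled het for the same allele, 3 each at 5, 15 and 30 dpf. The het fish at 5 and 15 dpf serve here as the same step in another genotype, and fish without the allele were not analysed here. The labels do not say how many fish went into a library or whether libraries came from separate clutches, so the p-values measure the spread between these libraries alone.

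Scospondin is a large glycoprotein that brain cells secrete into the ventricles, where it assembles into the Reissner fibre, a thread that runs down the central canal of the spinal cord. In zebrafish the fibre is known for its part in a straight body axis, and its loss leads to curvature of the spine. The days after 5 dpf are known as the time when the larval gut, exocrine pancreas and liver take over from the yolk. Cartilage, muscle, eye and brain keep growing over the same days, and the adaptive arm of the immune system is still developing.

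The mutated gene itself lay near the limit of detection. The normalised read counts of scospondin, as CPM (counts scaled to a common library total), were 0.422, 1.31 and 0.927 in the libraries of MZ fish at 5 dpf and 0.154, 0.426 and 0.605 at 15 dpf. The ranges of the ages overlapped, and the gene did not pass the filter on low counts. In a fit without that filter its log2 fold change was -1.16 (SE 0.59, adjusted p = 0.114), so a change with age was not detectable at this depth. A hypomorphic allele can leave transcript levels as they are, and these counts do not check the labels. Of the small peptide genes that are known in zebrafish to act downstream of the fibre, urp1 had CPM of 3.79, 3.36 and 2.98 at 5 dpf and 3.08, 2.55 and 3.54 at 15 dpf. Its paralog urp2 had CPM of 3.37, 2.21 and 1.79 at 5 dpf and 2.77, 2.98 and 2.07 at 15 dpf. Neither was called, with log2 fold changes of -0.16 (SE 0.24) and 0.04 (SE 0.30). In the fit described below, with the trend on gene length removed, they were -0.40 and -0.27, also not called.

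Total counts ran from 10635424 to 16359394 per library at 5 dpf and from 10799674 to 13720410 at 15 dpf, and 23567 to 24407 gene names had at least 1 count. Over genes, Pearson's r of 2 replicates lay between 0.990 and 0.994, and each pair differed by more than sampling noise. Defining markers of neurons, fast muscle, liver, exocrine pancreas, epidermis, cartilage, larval red cells, cones, lens and neutrophils were detected in all 6 libraries, the lowest at 5.01 CPM. Replicate 1 of the fish at 15 dpf stood apart from the other two of its group for some genes. Its CPM of the globin hbz was 234, against 46.2 and 30 in replicates 2 and 3. Without that library 11536 genes were called, against 11269 with it.

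The change with age varied with gene length. Long genes lay lower and short genes higher at 15 dpf, as the plot of change by gene length shows. Genes were put in 10 equal bins by deposited length. In the shortest bin, up to 1072 bases, the median log2 fold change was 0.48, and 49.7% of the genes rose while 12.6% fell. In the longest bin, from 5521 bases, the median was -0.62, and 6.7% rose while 61.7% fell. Across the 19232 genes tested in both genotypes Spearman's rho of length and log2 fold change was -0.346 in MZ and -0.128 in het fish, given as a description, since all genes share the same libraries. The source of this trend was not tested. A fit in which each library's trend on gene length was removed was added after seeing the data. Gene lists differ in length, so that fit can also remove change that belongs to the genes, and its values are an alternative, not a correction. Its value is given where it ended the call of a named gene or moved a printed MZ log2 fold change by over 1.5 times. That fit called 10357 genes, and 8885 of the 11269 calls kept their call and direction in it.

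**Figure D1:**
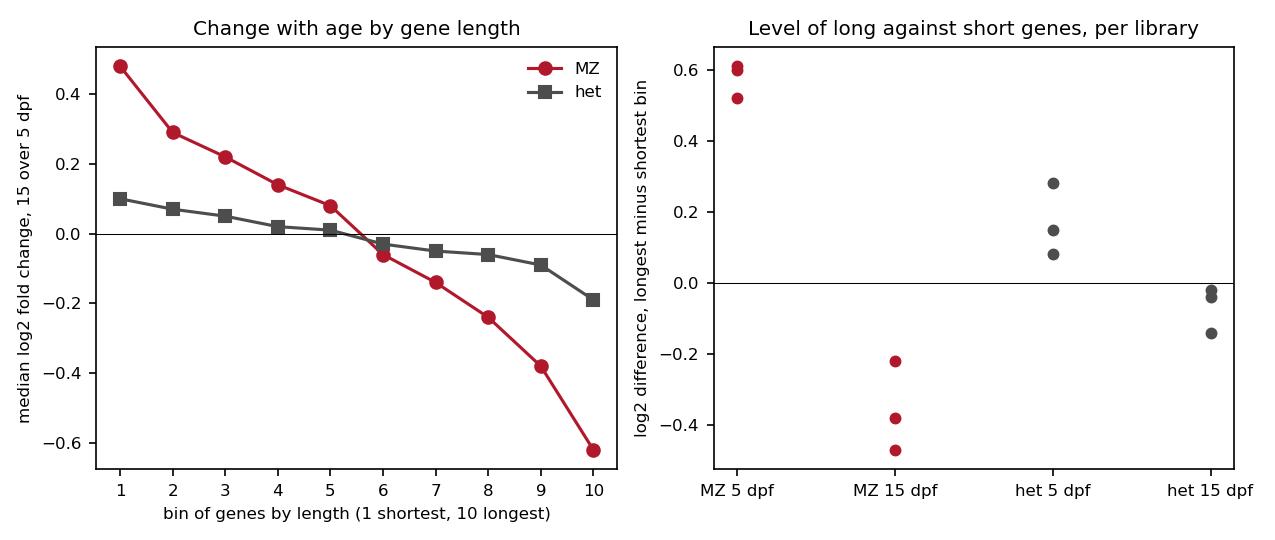
Left, the median log2 fold change from 5 to 15 dpf in 10 bins of 19232 genes ordered by length, for MZ (circles) and het fish (squares). Right, per library, the median log2 deviation of the longest bin minus that of the shortest, where a gene's deviation is its log2(CPM + 1) minus its mean over the libraries. The 3 MZ libraries at 5 dpf sit at 0.52 to 0.61 and those at 15 dpf at -0.47 to -0.22. The het libraries sit at 0.08 to 0.28 at 5 dpf and at -0.14 to -0.02 at 15 dpf.

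Most of the transcriptome moved between the ages. Of 19768 genes tested with edgeR's quasi-likelihood test, 11269 (57%) were called at an adjusted p under 0.05. Of these, 5476 (27.7%) were higher and 5793 (29.3%) lower at 15 dpf, and 2126 rose (10.8%) and 2482 fell (12.6%) by more than 2-fold. The CPM of the 2 groups did not overlap for 12545 genes (63.5%). The median log2 fold change over all genes was -0.07, and the biological coefficient of variation was 0.131. In 52 called genes every library at 5 dpf was at 3 counts or fewer, and in 38 every library at 15 dpf was. Counts of members of a gene list are to be read against these shares, and no p is given for a list. Since the libraries are of whole fish, fewer cells of a type and less RNA per cell cannot be told apart in any of these results.

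**Figure D2:**
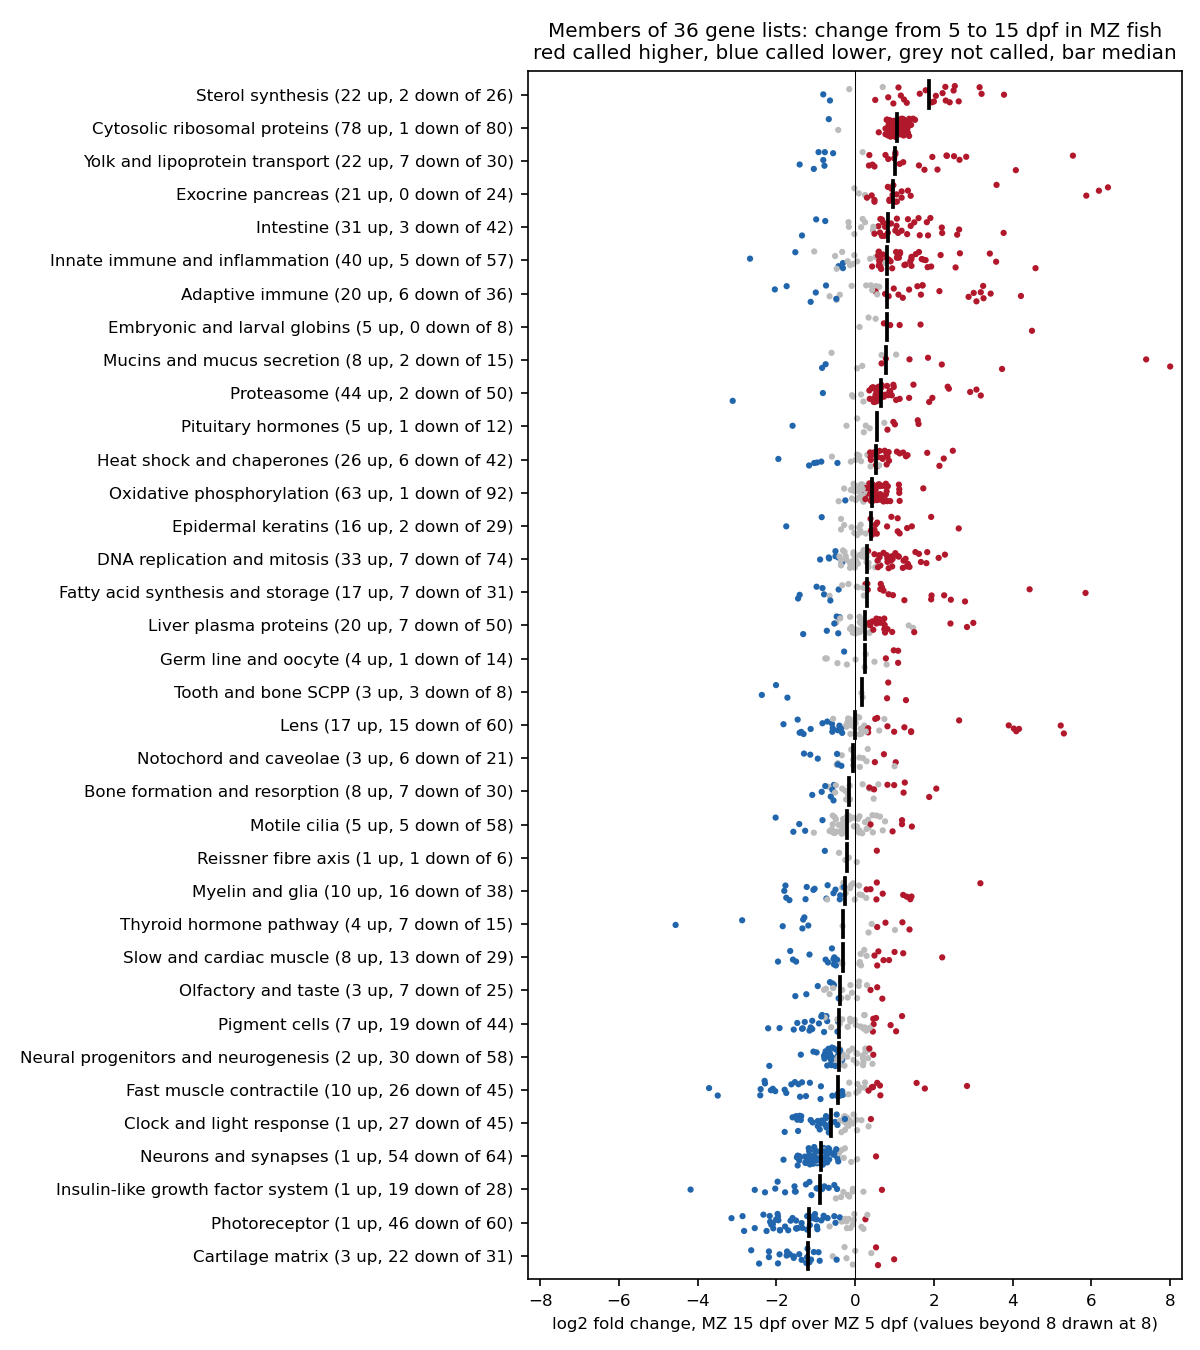
Each point is a tested member of a gene list, placed by its log2 fold change at 15 over 5 dpf in MZ fish, and each black bar is the median of its list. The lists run from Sterol synthesis, with a median of 1.87, to Cartilage matrix, with a median of -1.21, and the labels give the members called up and down.

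Most tested genes of the exocrine pancreas, which makes the digestive enzymes, rose, and sycn.1 and cuzd1.1 were among the largest single rises. Among 24 tested genes of that organ, 21 rose and 0 fell, with a median log2 fold change of 0.96. For sycn.1, which encodes the granule protein syncollin, CPM was 0.263, 0.0819 and 0.596 at 5 dpf and 19.6, 32.8 and 21.9 at 15 dpf. The gene was thus almost absent from every younger library and present in every older one (log2 fold change 6.19, adjusted p = 1.23e-08, SE 0.34). The largest rises were named only among genes whose ranges at 5 and 15 dpf did not overlap, so that rule set their separation. For cuzd1.1, named for its CUB and zona pellucida-like domains, CPM was 3.85, 5 and 4.97 at 5 dpf and 287, 299 and 230 at 15 dpf (log2 fold change 5.87, SE 0.16, adjusted p = 3e-11). The 2 trypsin family genes that were already among the most abundant transcripts rose less. The CPM of try was 4503, 4554 and 5358 at 5 dpf and 8092, 8794 and 10853 at 15 dpf, and that of prss59.2 was 4295, 4063 and 4957 and then 7952, 9520 and 10726. Their log2 fold changes were 0.92 (SE 0.13) and 1.06 (SE 0.13), or 0.60 and 0.68 with the length trend removed, and reads shared between such close relatives make both values uncertain.

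Of 42 tested intestinal genes, 31 rose and 3 fell, with a median log2 fold change of 0.84. The acidic chitinase gene chia.1 had CPM of 266, 287 and 311 at 5 dpf and 1500, 2054 and 1945 at 15 dpf, a log2 fold change of 2.64 (adjusted p = 4.01e-09, SE 0.13). The protease gene mep1b had CPM of 16.8, 22 and 22.8 at 5 dpf and 84.4, 139 and 153 at 15 dpf (log2 fold change 2.59, SE 0.19, adjusted p = 2.06e-07). Against this direction, slc6a19a.1, which encodes a neutral amino acid transporter of the gut brush border, fell by 0.76 on the log2 scale (SE 0.12, adjusted p = 9.45e-05), or by 0.49 with the length trend removed. No library of the older group reached the range of the younger for that gene, with CPM of 52.5, 55.8 and 60.3 at 5 dpf and 29.6, 34.6 and 37.1 at 15 dpf.

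Genes of lipid handling rose as well. Of 26 tested genes of sterol synthesis, 22 rose and 2 fell, with a median log2 fold change of 1.87. The CPM of sqlea, which encodes squalene epoxidase, was 2.58, 2.87 and 2.05 at 5 dpf and 30.4, 37.6 and 36.8 at 15 dpf, a log2 fold change of 3.78 (adjusted p = 1.43e-09, SE 0.17). The CPM of hmgcs1, which makes the precursor of the rate-limiting step, went from between 32 and 33.6 to between 266 and 318, and that of msmo1, a later enzyme, from between 24.2 and 32.8 to between 255 and 273. The log2 fold changes were 3.16 (SE 0.11) for hmgcs1 and 3.21 (SE 0.13) for msmo1. The regulator of the pathway, srebf2, moved the other way, with CPM of 47, 38.7 and 40.3 at 5 dpf and 26.7, 28.2 and 27.7 at 15 dpf (log2 fold change -0.64, SE 0.11, adjusted p = 0.000353). That call was lost when the trend on gene length was removed (log2 fold change -0.28, adjusted p = 0.0595).

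Of 30 tested genes of yolk and lipoprotein transport, 22 rose and 7 fell, with a median log2 fold change of 1.00. The apolipoprotein gene apoa4a, known for carrying dietary lipid, had CPM of 35.6, 20.9 and 31.5 at 5 dpf and 1077, 1453 and 1635 at 15 dpf (log2 fold change 5.53, SE 0.21, adjusted p = 3.02e-10). The gene apoda.2, named for apolipoprotein D, had CPM of 225, 267 and 275 at 5 dpf and 1334, 1887 and 2283 at 15 dpf (log2 fold change 2.82, SE 0.17). Copies within an apolipoprotein gene cluster can resemble each other, so each of these values may include reads of the gene's own close copies.

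Of 31 tested genes of fatty acid synthesis and storage, 17 rose and 7 fell, and the number of falls was 4 without MZ 5 dpf replicate 3. The lipid droplet gene plin2 had CPM of 1.53, 2.13 and 3.05 at 5 dpf and 82.6, 128 and 180 at 15 dpf (log2 fold change 5.85, SE 0.30, adjusted p = 5.7e-09). The fatty acid desaturase gene fads2 had CPM of 12.8, 15.9 and 14.6 at 5 dpf and 322, 269 and 353 at 15 dpf (log2 fold change 4.43, SE 0.14). The elongase gene elovl2 rose by 2.79 on the log2 scale (SE 0.19). The last enzyme of triglyceride synthesis, dgat2, fell by 1.41 (SE 0.13), with CPM of 56.6, 66.9 and 75.6 at 5 dpf and 24.1, 25.3 and 26.5 at 15 dpf.

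Of 50 tested genes for liver plasma proteins, 20 rose and 7 fell. The number of falls was 2 without MZ 15 dpf replicate 2, 3 without MZ 15 dpf replicate 3, 4 without MZ 5 dpf replicate 2, 3 without MZ 5 dpf replicate 3 and 3 with the length trend removed. The fetuin gene ahsg1 had CPM of 13.8, 5.73 and 10 at 5 dpf and 96.8, 74.6 and 73.5 at 15 dpf (log2 fold change 3.00, SE 0.22, adjusted p = 1.99e-07). The complement gene c3a.2 had CPM of 4.37, 2.13 and 2.58 at 5 dpf and 39.5, 14.8 and 13.1 at 15 dpf, with a log2 fold change of 2.84 (SE 0.39) that was 2.17 without replicate 1 at 15 dpf. The thyroid hormone carrier ttr fell, with CPM of 63.5, 62.2 and 66.6 at 5 dpf and 26.6, 16.5 and 34.7 at 15 dpf (log2 fold change -1.32, SE 0.19, adjusted p = 5.26e-05).

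**Figure D3:**
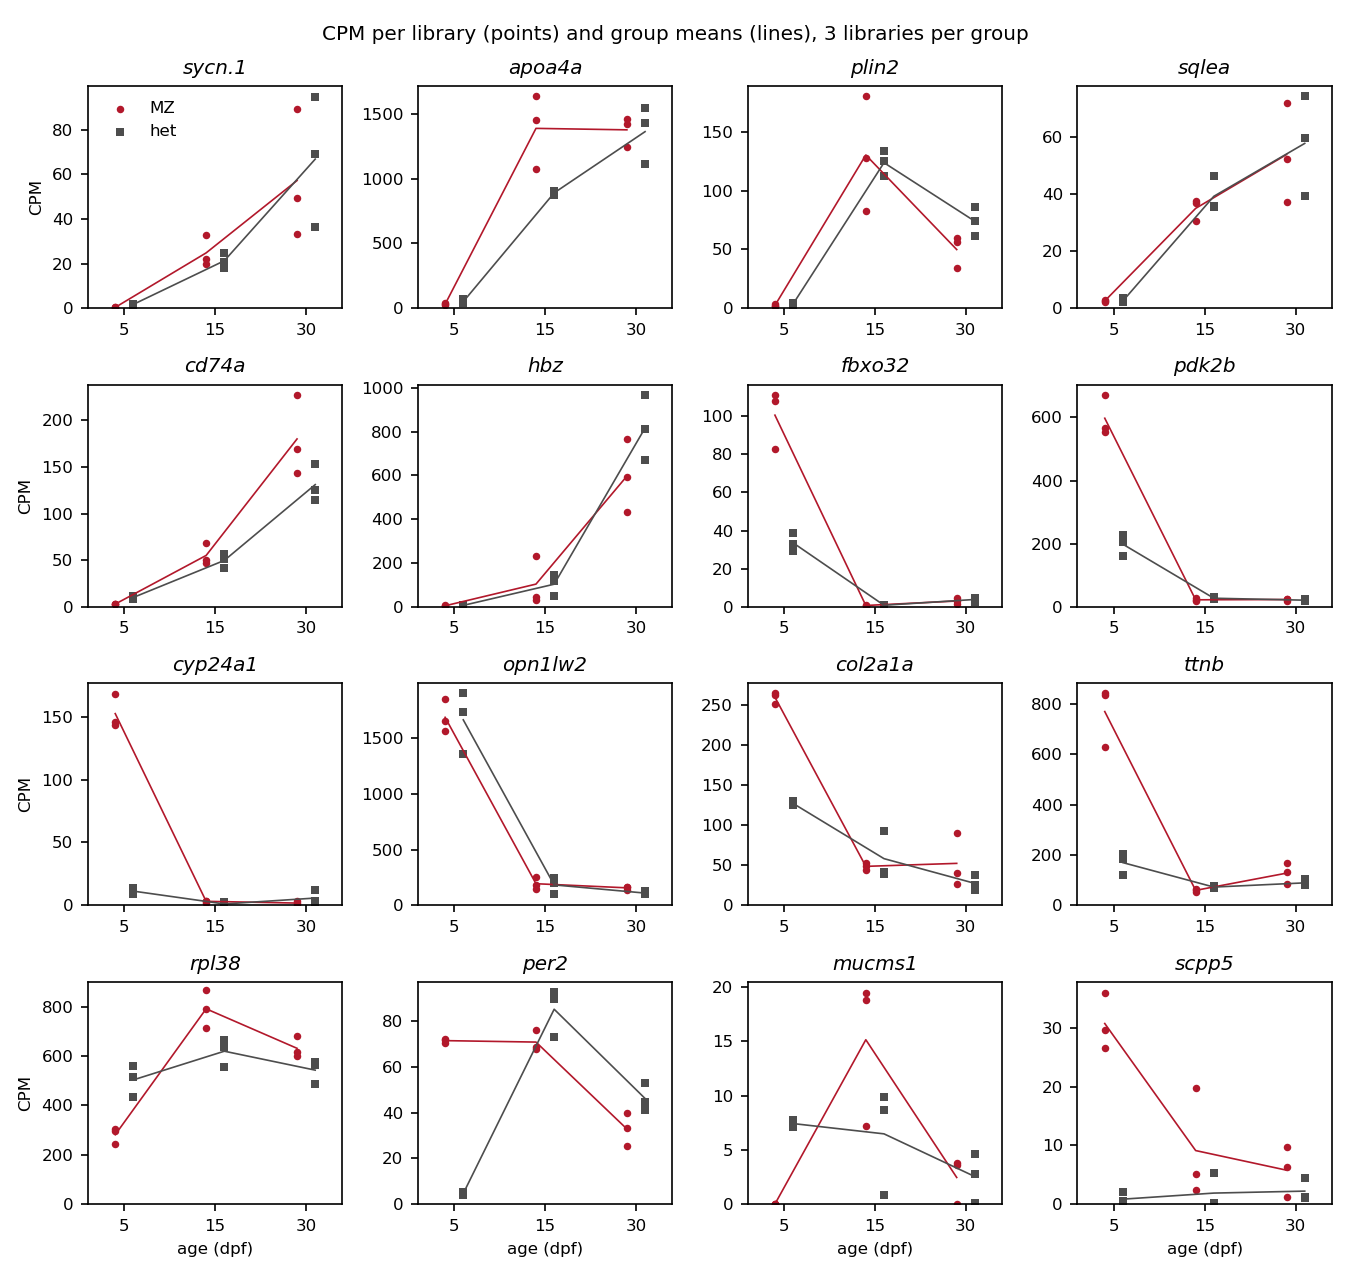
CPM of 16 genes in each library (points) with group means joined by lines, for MZ (red circles) and het fish (grey squares) at 5, 15 and 30 dpf, 3 libraries per group. In the MZ libraries sycn.1 goes from between 0.0819 and 0.596 at 5 dpf to between 19.6 and 32.8 at 15 dpf, and pdk2b from between 554 and 671 to between 18.5 and 27.

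The largest falls included a ubiquitin ligase, a metabolic kinase and a vitamin D enzyme. The CPM of fbxo32, a ubiquitin ligase gene known in mammals for muscle wasting, was 82.6, 111 and 108 at 5 dpf and 0.539, 0.851 and 0.605 at 15 dpf. It was the largest fall by the naming rule among genes above the floor, with a log2 fold change of -7.28 (adjusted p = 4.9e-11, SE 0.21). The pyruvate dehydrogenase kinase gene pdk2b, which restrains the burning of sugar, had CPM of 554, 567 and 671 at 5 dpf and 27, 18.5 and 20.5 at 15 dpf (log2 fold change -4.78, SE 0.16, adjusted p = 1.13e-10). The stress response gene nupr1 went from between 129 and 148 CPM to between 8.38 and 10.1 (log2 fold change -3.87, SE 0.13). The uridine phosphorylase gene upp2 went from between 14.7 and 23.6 CPM to between 0.532 and 2 (log2 fold change -3.87, SE 0.30). The kelch-like gene klhl24b went from between 21.6 and 30.7 CPM to between 1.92 and 2.25 (log2 fold change -3.73, SE 0.20).

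For klhl38b, of the same kelch-like family, counts were 275, 272 and 316 in the libraries at 5 dpf and 1, 0 and 1 at 15 dpf. The ratio of the summed counts per depth was 316, with a 95% exact interval from 87.3 to 2617 that covers counting error only. The vitamin D inactivating enzyme gene cyp24a1 had CPM of 146, 143 and 168 at 5 dpf and 3.7, 2.24 and 3.8 at 15 dpf (log2 fold change -5.55, SE 0.17, adjusted p = 5.94e-11). The largest falls were named only among genes whose 5 dpf and 15 dpf ranges did not overlap, so their separation was set by that rule.

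Of 28 tested genes of the insulin-like growth factor system, which carries growth signals, 1 rose and 19 fell, with a median log2 fold change of -0.89. These genes are long, with a median deposited length of 3081 bases, and with the length trend removed 17 fell, with a median of -0.66. The rise, of the binding protein gene igfbp2b, was not called in 4 of 6 fits that left out a library, those without MZ 15 dpf replicate 1 and without each of the MZ 5 dpf libraries. No gene of the list rose with DESeq2, with no filter, with at least 50 counts in 3 libraries, in 1 fit over all libraries or with the replicate block. The insulin receptor substrate gene irs2b had CPM of 58.2, 70.8 and 62.2 at 5 dpf and 15.8, 8.51 and 8.38 at 15 dpf (log2 fold change -2.55, SE 0.20, adjusted p = 3.48e-07). Of 15 tested genes of the thyroid hormone pathway, 4 rose and 7 fell, among them klf9, a hormone-responsive transcription factor gene. Its CPM was 37.1, 58.6 and 49.3 at 5 dpf and 7.7, 6.17 and 6.14 at 15 dpf (log2 fold change -2.87, SE 0.18).

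Of 12 tested genes on the list of pituitary hormones, 5 rose and 1 fell. The number of rises was 3 without MZ 5 dpf replicate 2, without MZ 5 dpf replicate 3, with the length trend removed or in 1 fit over all libraries, and 2 with at least 50 counts in 3 libraries. There was no fall without MZ 15 dpf replicate 3, MZ 5 dpf replicate 1 or MZ 5 dpf replicate 3. The growth hormone gene gh1 had CPM of 6.01, 2.62 and 4.83 at 5 dpf and 7.09, 10.4 and 10.8 at 15 dpf (log2 fold change 1.01, SE 0.26, adjusted p = 0.00439). The gene for the shared alpha subunit of the glycoprotein hormones, cga, had CPM of 0.896, 0.246 and 0.53 at 5 dpf and 2.39, 2.13 and 0.951 at 15 dpf (log2 fold change 1.59, SE 0.47, adjusted p = 0.01). The oxytocin-like gene oxt, which is made in the hypothalamus, had CPM of 3.95, 1.31 and 3.38 at 5 dpf and 12.9, 11.1 and 3.63 at 15 dpf, so its groups overlapped (log2 fold change 1.61, SE 0.41, adjusted p = 0.00411).

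Muscle genes moved in both directions. Of 45 tested fast muscle genes, 10 rose and 26 fell, with a median log2 fold change of -0.44. The giant spring protein genes led the falls. The CPM of ttnb was 630, 843 and 838 at 5 dpf and 64.4, 52.8 and 62.2 at 15 dpf (log2 fold change -3.71, SE 0.14, adjusted p = 4.43e-10), and ttna had a log2 fold change of -3.49 (SE 0.14). Both are among the longest genes, and with the length trend removed their log2 fold changes were -2.35 and -2.07, both still called. The myosin heavy chain gene myhz1.1 and the calcium pump gene atp2a1 were among the most abundant falls. The CPM of myhz1.1 was 6355, 6181 and 7387 at 5 dpf and 1899, 1329 and 1738 at 15 dpf (log2 fold change -2.03, SE 0.14), and that of atp2a1 was 5254, 6241 and 6985 and then 1982, 2121 and 2409 (log2 fold change -1.53, SE 0.13). Near-identical myosin genes can share reads with myhz1.1.

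Other contractile genes rose. The actin gene acta1b had CPM of 989, 939 and 1316 at 5 dpf and 3790, 3918 and 3496 at 15 dpf (log2 fold change 1.77, SE 0.13, adjusted p = 1.76e-07), a value that reads of other skeletal actin genes can touch. The fast troponin I gene tnni2a.3 had CPM of 2.74, 2.29 and 1.85 at 5 dpf and 18.7, 17.6 and 14.6 at 15 dpf (log2 fold change 2.84, SE 0.20). The myosin light chain gene mylpfa and the calcium buffer gene pvalb2, the most abundant transcripts among the rises, had log2 fold changes of 0.56 (SE 0.11) and 0.64 (SE 0.11), or 0.37 and 0.36 with the length trend removed. The CPM of mylpfa was 15420, 17345 and 18056 at 5 dpf and 25030, 25665 and 25307 at 15 dpf.

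Of 29 tested genes of slow and cardiac muscle, 8 rose and 13 fell. The ventricular myosin genes vmhc and vmhcl fell, by 1.58 (SE 0.12) and 1.96 (SE 0.22) on the log2 scale, as did the slow myosin gene smyhc2, by 1.50 (SE 0.12) or by 0.72 with the length trend removed. The light chain gene myl10 rose, with CPM of 475, 501 and 433 at 5 dpf and 983, 1198 and 1160 at 15 dpf (log2 fold change 1.22, SE 0.11), and so did the cardiac actin gene actc1a (log2 fold change 1.00, SE 0.19).

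In the eye, photoreceptor transcripts took a smaller share of the RNA at 15 dpf. Of 60 tested photoreceptor genes, 1 rose and 46 fell, with a median log2 fold change of -1.17. The red cone opsin gene opn1lw2 had CPM of 1849, 1561 and 1652 at 5 dpf and 181, 151 and 252 at 15 dpf (log2 fold change -3.14, SE 0.16, adjusted p = 7.72e-09). The green opsin gene opn1mw1 had a log2 fold change of -2.55 (SE 0.18) and the blue opsin gene opn1sw2 one of -2.33 (SE 0.18), so transcripts of 3 cone opsins fell. The 1 gene that rose, gnb1b, encodes a G protein subunit that is not specific to photoreceptors, and its log2 fold change of 0.26 (adjusted p = 0.029, SE 0.09) lost its call in 5 of 6 fits that left out a library. It was 0.54 with the length trend removed.

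Lens genes split. Of 60 tested, 17 rose and 15 fell, with a median log2 fold change of -0.01. With the length trend removed 13 rose and 28 fell, and the order of the numbers also turned with a higher count minimum, without MZ 15 dpf replicate 3 and without MZ 5 dpf replicate 1. Crystallins of the gamma M class, the main soluble proteins of the fish lens, were found on both sides. The CPM of crygm1 was 0.79, 1.07 and 1.32 at 5 dpf and 61.6, 31.9 and 32.1 at 15 dpf (log2 fold change 5.30, SE 0.31, adjusted p = 2.23e-08). That of crygm2a was 0.316, 0.246 and 0.397 at 5 dpf and 21.1, 7.77 and 8.47 at 15 dpf (log2 fold change 5.22, SE 0.48), and crygm2e had a log2 fold change of 4.16 (SE 0.15). In contrast, crygm2d5 fell from between 93.9 and 113 CPM to between 24.3 and 34.1 (log2 fold change -1.82, SE 0.13), and crygm2d14 by 1.46 (SE 0.13). The copies are near-identical in sequence, so how reads were divided among them is uncertain.

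Most of the tested genes of neurons and synapses fell. Of 64 tested genes of neurons and synapses, 1 rose and 54 fell, with a median log2 fold change of -0.87. The syntaxin-binding gene stxbp1b had CPM of 47.4, 46 and 46.2 at 5 dpf and 14.9, 8.51 and 16.4 at 15 dpf (log2 fold change -1.82, SE 0.18, adjusted p = 2.05e-06). The calcium channel gene cacna1aa had CPM of 41.4, 29.7 and 31.8 at 5 dpf and 15.8, 10.4 and 11.1 at 15 dpf, a log2 fold change of -1.48 (SE 0.17) that was -0.74 with the length trend removed. The list median was -0.72 with that trend removed. The 1 gene that rose, uchl1, a neuronal ubiquitin hydrolase gene, had a log2 fold change of 0.53 (adjusted p = 0.00947, SE 0.15) and lost its call in 1 of 6 fits that left out a library, that without MZ 5 dpf replicate 3.

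Of 58 tested genes of neural progenitors and neurogenesis, 2 rose and 30 fell. These numbers were 6 and 17 without MZ 15 dpf replicate 3, and 6 and 19 without MZ 5 dpf replicate 1. The forebrain transcription factor gene tbr1b fell by 1.38 on the log2 scale (SE 0.18, adjusted p = 2.5e-05). The progenitor gene sox3 rose by 0.46 (SE 0.11, adjusted p = 0.00304), with CPM of 41.4, 41.5 and 37 at 5 dpf and 52.6, 54.1 and 60.8 at 15 dpf. Of 38 tested genes of myelin and glia, 10 rose and 16 fell. The myelin enzyme gene cnp rose from between 30.7 and 32.2 CPM to between 72.4 and 84.4 (log2 fold change 1.31, SE 0.11), and the glial filament gene gfap fell from between 64 and 79.2 to between 15.4 and 26.6 (log2 fold change -1.75, SE 0.17). The prostaglandin D synthase gene ptgdsb had CPM of 426, 427 and 407 at 5 dpf and 3357, 4087 and 4155 at 15 dpf (log2 fold change 3.18, SE 0.12, adjusted p = 2.78e-10). The secreted cerebellin gene cbln8 had CPM of 0.632, 0.573 and 0.662 at 5 dpf and 66.6, 12.9 and 8.47 at 15 dpf, a log2 fold change of 5.53 (SE 0.77) that was 4.08 without replicate 1 at 15 dpf.

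Of 31 tested cartilage matrix genes, 3 rose and 22 fell, with a median log2 fold change of -1.21. The CPM of col2a1a, the main collagen gene of cartilage and of the notochord sheath, was 265, 263 and 252 at 5 dpf and 43.8, 49.5 and 53 at 15 dpf (log2 fold change -2.44, SE 0.11, adjusted p = 1.39e-09). The fibril partner gene col11a2 had a log2 fold change of -2.19 (SE 0.13) and the matrilin gene matn3a one of -2.19 (SE 0.17). With the length trend removed the values of the 2 collagen genes were -1.92 and -1.54. The 3 genes that rose were ucmaa, a cartilage matrix protein gene, hapln1a, a link protein gene, and col10a1a, a collagen gene of mature cartilage and, in zebrafish, of bone. Their log2 fold changes were 0.99 (SE 0.20), 0.58 (SE 0.14) and 0.53 (SE 0.15). Removing the length trend gave 0.57 for ucmaa and 0.98 for hapln1a.

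Of 30 tested genes of bone formation and resorption, 8 rose and 7 fell, the number of rises was 5 without MZ 5 dpf replicate 3, and 3 fell with the length trend removed. The osteoclast protease gene ctsk rose, with CPM of 14, 11.9 and 15.3 at 5 dpf and 46.1, 60.1 and 48.6 at 15 dpf (log2 fold change 1.88, SE 0.14, adjusted p = 1.56e-07). The osteoblast gene ifitm5 had a log2 fold change of 0.99 (SE 0.21), or 0.59 with the length trend removed. The bone mineral regulator genes sost and phex fell by 0.85 (SE 0.16) and 0.76 (SE 0.13), and the fibrillar collagen gene col5a1 by 1.09 (SE 0.13). The gene col5a1 fell by 0.38 (adjusted p = 0.0232) with the length trend removed. Of 21 tested genes of notochord and caveolae, 3 rose and 6 fell, and 2 fell without MZ 15 dpf replicate 2. The notochord gene cmn fell by 1.14 (SE 0.20), or by 0.73 with the length trend removed, and the caveolin gene cav2 rose by 0.73 (SE 0.12).

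The secretory calcium-binding phosphoprotein (SCPP) genes of teeth and bone split, and replicate 1 at 15 dpf stood apart in several. Of 11 on the list, 8 were tested, 3 rose and 3 fell. The CPM of scpp5, a tooth gene, was 26.5, 36 and 29.7 at 5 dpf and 19.8, 2.34 and 5.19 at 15 dpf (log2 fold change -1.72, SE 0.44, adjusted p = 0.00445). That of odam, an ameloblast-associated gene, was 14, 9.01 and 8.41 at 5 dpf and 4.93, 0 and 0.778 at 15 dpf (log2 fold change -2.37, SE 0.57, adjusted p = 0.00303). That of scpp9 was 19.1, 6.8 and 15.4 at 5 dpf and 9.09, 0.426 and 0.259 at 15 dpf, with overlapping groups (log2 fold change -2.01, SE 0.67, adjusted p = 0.0192). All 3 falls lost their call with DESeq2, where the adjusted p was 0.0678 for scpp5, 0.169 for odam and 0.212 for scpp9. They also lost it in edgeR's robust fit, with adjusted p of 0.121, 0.0899 and 0.209, and scpp9 in 4 of 6 fits that left out a library and in 1 fit over all libraries. Without replicate 1 at 15 dpf the log2 fold changes were -2.97 for scpp5, -4.59 for odam and -5.33 for scpp9.

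The rises on that list were spp1, si:dkey-22i16.3 and scpp8. The osteopontin gene spp1 had CPM of 8.8, 10.2 and 8.94 at 5 dpf and 20.9, 18.5 and 10.3 at 15 dpf (log2 fold change 0.81, SE 0.22, adjusted p = 0.00612). The CPM of si:dkey-22i16.3 was 44.3, 39 and 39.2 at 5 dpf and 188, 61.8 and 52.5 at 15 dpf, and its log2 fold change of 1.29 (SE 0.35) was 0.49 without replicate 1 at 15 dpf. The log2 fold change of scpp8 was 0.84 (SE 0.30, adjusted p = 0.0278) and it stayed called in only 1 of the 6 fits with a library left out, and lost its call with the length trend removed (0.68, adjusted p = 0.0738). The matrix gene sparc was abundant at both ages and was not called, with a log2 fold change of 0.16 (SE 0.09). The genes scpp1 and scpp7 were below 2 CPM in every library of both ages and were not tested.

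Skin and mucus genes rose in part. Of 29 tested epidermal keratin and junction genes, 16 rose and 2 fell. The number of falls was 6 with no filter on low counts, 5 with the replicate block or without MZ 5 dpf replicate 1, 4 with at least 50 counts in 3 libraries, and 1 with DESeq2 or without MZ 5 dpf replicate 3. The keratin gene krt17 had CPM of 376, 630 and 559 at 5 dpf and 1497, 2390 and 2192 at 15 dpf (log2 fold change 1.93, SE 0.19, adjusted p = 2.28e-06), and krt96 a log2 fold change of 1.44 (SE 0.10). The plakophilin gene pkp1b fell by 0.85 (SE 0.17). Of 15 tested genes of mucins and mucus secretion, 8 rose and 2 fell, or 1 fell without MZ 15 dpf replicate 2, MZ 15 dpf replicate 3 or MZ 5 dpf replicate 3 and 0 with the length trend removed. The gene mucms1, a mucin gene by its name, had counts of 0 in all 3 libraries at 5 dpf, and CPM of 7.16, 18.8 and 19.5 at 15 dpf. Against a floor of 3 counts per library it was at least 75.6-fold higher at 15 dpf. The intelectin gene itln2, a carbohydrate-binding lectin of mucus, had counts of 3, 2 and 3 at 5 dpf and 260, 441 and 309 at 15 dpf, a ratio per depth of 172 with a 95% exact interval from 87 to 400. The secretory gene clca1 had a log2 fold change of 3.73 (SE 0.41).

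Immune genes rose in majority. Of 57 tested innate and inflammatory genes, 40 rose and 5 fell, and of 36 tested adaptive immune genes 20 rose and 6 fell. The 5 innate falls were 2 without MZ 5 dpf replicate 3 and 3 without MZ 15 dpf replicate 2, with DESeq2 or with RLE size factors. The number of rises among adaptive immune genes was 9 when at least 50 counts were asked for in 3 libraries, a setting that leaves fewer of these genes tested. The granulin gene grn2 had CPM of 1, 1.8 and 0.861 at 5 dpf and 21.9, 37.4 and 27.6 at 15 dpf (log2 fold change 4.58, SE 0.27, adjusted p = 1.91e-08). The peptidoglycan recognition gene pglyrp6 had a log2 fold change of 3.42 (SE 0.20). The invariant chain gene cd74a, a partner of the class II histocompatibility molecules of antigen-presenting cells, had CPM of 3.32, 2.87 and 2.45 at 5 dpf and 49.8, 67.9 and 47.4 at 15 dpf (log2 fold change 4.21, SE 0.18, adjusted p = 1.08e-09). The class II gene mhc2dab had CPM of 2.48, 2.29 and 1.92 at 5 dpf and 13.5, 29 and 23.7 at 15 dpf (log2 fold change 3.26, SE 0.26). For plac8.2 the counts were 2, 0 and 2 at 5 dpf and 82, 137 and 194 at 15 dpf, a ratio per depth of 141 with a 95% exact interval from 54.6 to 519.

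Proteasome genes rose in number, with 44 of 50 tested called higher and 2 lower, and a median log2 fold change of 0.65. With the length trend removed 39 rose and 1 fell, with a median of 0.45. The activator genes psme1 and psme2, which are interferon-inducible in mammals and aid the cutting of peptides for antigen presentation, were among the leading rises. The CPM of psme2 was 3.9, 5.49 and 5.03 at 5 dpf and 32, 40.8 and 37.4 at 15 dpf (log2 fold change 2.92, SE 0.16), and psme1 had a log2 fold change of 2.35 (SE 0.14). Another activator gene, psme4a, fell from between 17.3 and 25.2 CPM to between 1.06 and 3.63 (log2 fold change -3.11, SE 0.28).

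In blood, the embryonic and larval globins were detected at both ages, while no adult globin gene reached 1 CPM. Of 8 tested embryonic and larval globin genes, 5 rose and 0 fell. The CPM of hbz was 7.32, 3.52 and 2.38 at 5 dpf and 234, 46.2 and 30 at 15 dpf (log2 fold change 4.49, SE 0.67, adjusted p = 7.44e-05), and the log2 fold change was 3.07 without replicate 1 at 15 dpf. For hbbe2 it was 91.7, 57.4 and 72.2 at 5 dpf and 360, 190 and 162 at 15 dpf (log2 fold change 1.66, SE 0.25). The other rises were si:ch211-5k11.12, si:ch211-5k11.2 and hbbe1.2, with log2 fold changes of 1.13, 0.89 and 0.73. These are short genes, and with the length trend removed 4 of the list rose, its median went from 0.81 to 0.49, si:ch211-5k11.12 had a log2 fold change of 0.71 and hbbe1.2 lost its call (0.33, adjusted p = 0.0962). The abundant hbae3 and hbbe1.1, and hbae1, were not called, with log2 fold changes of 0.34 (SE 0.15), 0.11 (SE 0.12) and 0.52 (SE 0.22). With the length trend removed they were -0.07, -0.21 and 0.12, also not called. Both hbae1 and hbae3 were called with RLE size factors, with DESeq2, with no filter and with the replicate block. None of the 5 adult globin genes passed the filter, and the highest, hbaa1, reached 0.527 CPM at 5 dpf and was listed at 0 in all 3 libraries at 15 dpf. Globin copies lie in clusters of similar sequence, so reads may be shared among them.

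Nearly all genes for cytosolic ribosomal proteins rose. Of 80 tested genes for cytosolic ribosomal proteins, 78 rose and 1 fell, with a median log2 fold change of 1.06. The gene that fell, named after its value was seen, was rps8b, at a mean of 4.42 CPM at 5 dpf and 2.82 at 15 dpf (log2 fold change -0.67, SE 0.27, adjusted p = 0.0477). It was not called with DESeq2, with RLE size factors, with at least 50 counts in 3 libraries, or without MZ 15 dpf replicate 2, MZ 15 dpf replicate 3, MZ 5 dpf replicate 1 or MZ 5 dpf replicate 3. The CPM of rpl38 was 305, 294 and 244 at 5 dpf and 713, 868 and 791 at 15 dpf (log2 fold change 1.47, SE 0.12, adjusted p = 3.51e-07), and rpl30 had a log2 fold change of 1.42 (SE 0.11). These genes are short, with a median deposited length of 1086 bases, and with the length trend removed the list median was 0.78 and that of rpl38 alone 1.15. Of 92 tested genes of oxidative phosphorylation, 63 rose and 1 fell, with a median of 0.43, and the 1 fall was called in none of the 6 fits that left out a library. Their median length was 926 bases, and with the length trend removed 23 rose and 7 fell, with a median of 0.09. The cytochrome c gene cycsb kept a call, with a log2 fold change of 1.12 (SE 0.12) and 0.76 with the trend removed, and cox4i1l, a cytochrome oxidase subunit gene, had a log2 fold change of 1.73 (SE 0.15).

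Of 74 tested genes of DNA replication and mitosis, 33 rose and 7 fell, with a median log2 fold change of 0.31. The number of falls was 4 with DESeq2, with 1 fit over all libraries or without MZ 15 dpf replicate 1, 1 without MZ 15 dpf replicate 2 and 0 with the length trend removed. The replication genes led the rises. The helicase-like gene hells had CPM of 16.7, 14.3 and 14 at 5 dpf and 75.5, 76.6 and 71.1 at 15 dpf (log2 fold change 2.28, SE 0.12, adjusted p = 6.55e-09). The GINS subunit gene gins2 and the replicative helicase gene mcm5 had log2 fold changes of 2.12 (SE 0.17) and 1.83 (SE 0.12).

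Of 42 tested genes of heat shock proteins and chaperones, 26 rose and 6 fell. Among the rises was hspa5, the main chaperone of the endoplasmic reticulum, with CPM of 116, 126 and 129 at 5 dpf and 603, 655 and 847 at 15 dpf (log2 fold change 2.48, SE 0.13, adjusted p = 7.72e-09). The collagen chaperone gene serpinh1b had a log2 fold change of 2.14 (SE 0.22). The falls included fkbp5, a glucocorticoid-induced gene in mammals, with CPM of 118, 110 and 106 at 5 dpf and 24.3, 26.5 and 37.2 at 15 dpf (log2 fold change -1.95, SE 0.14), and the stress factor gene ddit3 (log2 fold change -1.17, SE 0.10).

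Of 45 tested genes of the circadian clock and the light response, 1 rose and 27 fell, with a median log2 fold change of -0.61. The clock repressor gene nr1d2a had CPM of 91.7, 101 and 100 at 5 dpf and 37, 24.9 and 23.6 at 15 dpf (log2 fold change -1.79, SE 0.16), and the clock output gene dbpb and the cryptochrome gene cry1ba had log2 fold changes of -1.50 (SE 0.14) and -1.47 (SE 0.12). The 1 rise was tefa, a light-responsive clock output gene, at 0.40 (SE 0.09). With the length trend removed 3 genes of the list rose and 21 fell, with a median of -0.41. The hour at which fish were collected is not given in the labels, so the hour and the age cannot be told apart for these genes.

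The remaining lists lay near or below the background of 57% called. So did several lists described above. The shares called for notochord and caveolae, bone, pituitary hormones, lens, liver plasma proteins, DNA replication and neural progenitors were all below that background. Of 44 tested pigment cell genes, 7 rose and 19 fell, with the melanosome gene pmela at a log2 fold change of -1.33 (SE 0.11). Of 58 tested motile cilia genes, 5 rose and 5 fell, or 17.2% called, and 1 fell with at least 50 counts in 3 libraries. Of 14 tested germ line genes, 4 rose and 1 fell. The number of rises was 2 without MZ 5 dpf replicate 2, without MZ 5 dpf replicate 3, with DESeq2 or with at least 50 counts in 3 libraries. The fall was lost with DESeq2 and with RLE size factors. It was also lost without MZ 15 dpf replicate 2, MZ 15 dpf replicate 3, MZ 5 dpf replicate 1 or MZ 5 dpf replicate 3. Of 25 tested genes of olfaction and taste, out of 306 on the list, 3 rose and 7 fell, or 6 and 12 with no filter, and that list holds olfactomedin genes, which are not receptors. Among 6 tested genes of the Reissner fibre axis, the secreted chaperone gene clu rose, with CPM of 31.8, 35.1 and 31.7 at 5 dpf and 47.5, 49.4 and 49.7 at 15 dpf (log2 fold change 0.55, SE 0.11), and the adhesion receptor gene adgrg6 fell by 0.77 (SE 0.16), or by 0.44 with the length trend removed. The number of falls was 2 without MZ 15 dpf replicate 1, MZ 5 dpf replicate 1 or MZ 5 dpf replicate 3.

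The same step in het fish, which shares no library with that of the mutants, was smaller in the number of calls. Of 19649 genes tested in het fish, 7793 (39.7%) were called, 3872 higher (19.7%) and 3921 lower (20%). Among 19232 genes tested in both genotypes, 2921 rose in both and 2396 fell in both. These genes are 48.2% of the MZ calls and 69.6% of the het calls, and 214 genes were called in opposite directions. Across these genes the log2 fold changes correlated with a Pearson's r of 0.72 and a Spearman's rho of 0.646, a description only, since the genes of a genotype share the same 6 libraries. The median absolute log2 fold change was 0.57 in MZ and 0.36 in het fish.

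The difference between the steps was tested directly as an interaction of genotype and age over 12 libraries. It called 4167 of 20526 genes (20.3%), of which 2157 (10.5%) changed more upward in MZ than in het fish and 2010 (9.79%) more downward. Without het 5 dpf replicate 1 the downward count was 1235. In the fit with the length trend removed 3049 were called, 1194 of them more downward, so that 60.8% of calls lay upward in place of 51.8%. In 1 fit over all libraries 65.1% lay upward. The other limit is that clutch, feeding and hour of collection are not given, so the genotype and the conditions of its groups cannot be told apart.

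**Figure D4:**
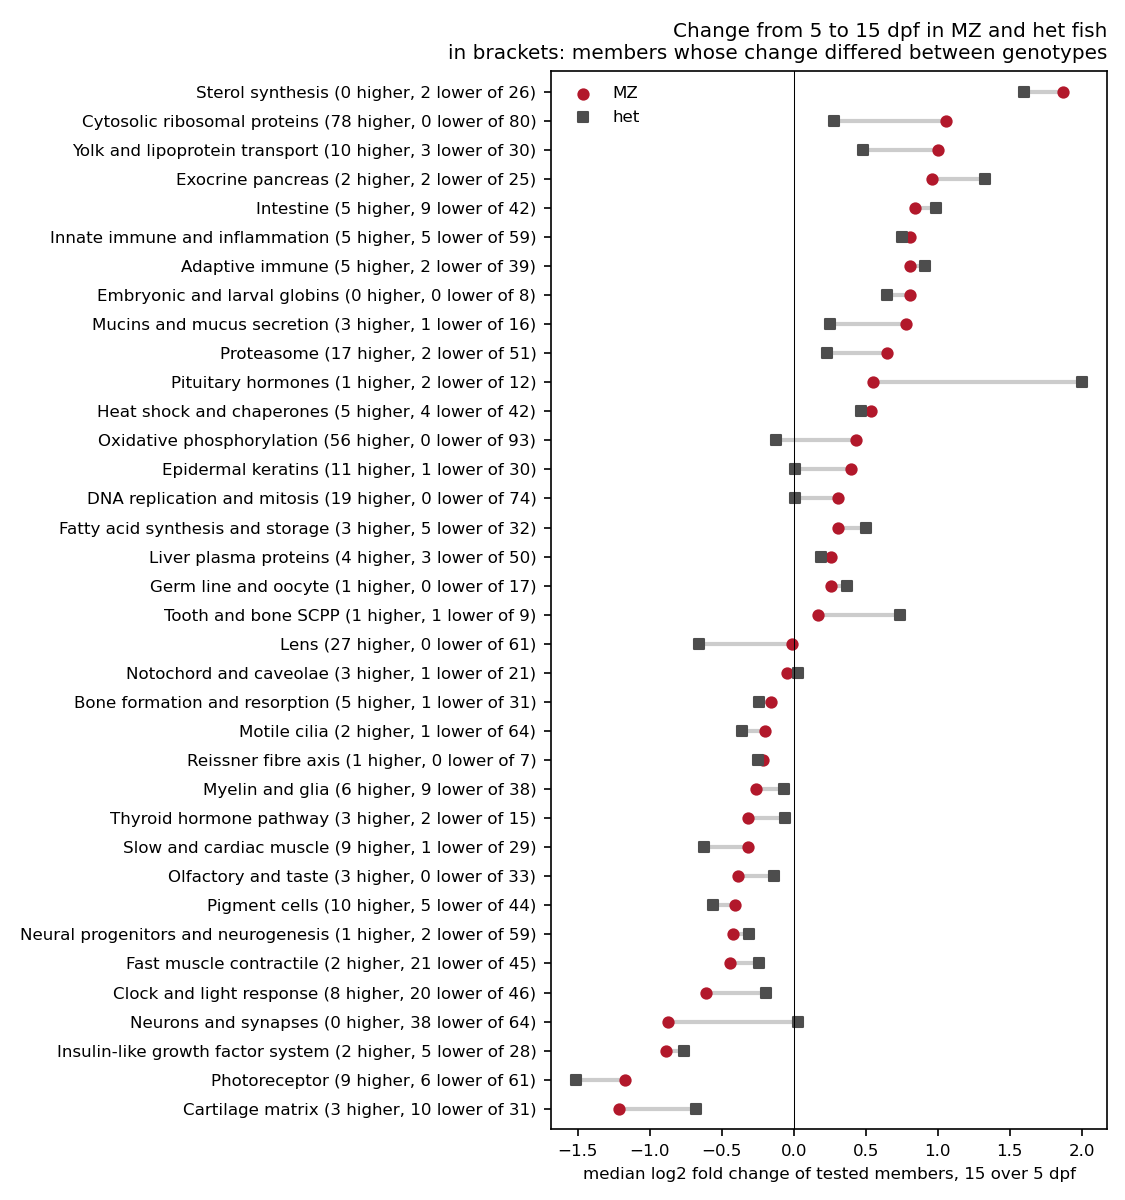
Median log2 fold change from 5 to 15 dpf of the tested members of each gene list in MZ (red circles) and het fish (grey squares), with the members whose change differed between the genotypes in brackets. The medians lie close for Innate immune and inflammation, at 0.81 and 0.75, and apart for Neurons and synapses, at -0.87 and 0.03.

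The shares of list members with an interaction are to be read against the 20.3% over all genes. In simulated data, described below, the interaction test called 6.12% of 1.5-fold and 69.4% of 2-fold differences. An interaction that was not called thus does not show an equal change in both genotypes. Sterol synthesis had 22 rises and 2 falls in MZ fish and 23 rises and 1 fall in het fish, and 2 of 26 genes had an interaction. The exocrine pancreas had 21 and 20 rises, and 4 of 25 genes had an interaction, a number that rested on the het libraries, with 10 of them lower without het 5 dpf replicate 3 against 2. Of these 4, 2 changed more upward in MZ fish and 2 more downward. The median log2 fold change of the list was 0.96 in MZ and 1.33 in het fish. Among the upward ones was sycn.1, with an interaction of 2.48 (SE 0.49, adjusted p = 0.00237) and mean CPM of 1.68 and 21.2 in het fish at 5 and 15 dpf. The number of interactions among innate immune genes was 10 of 59, and among photoreceptor genes 15 of 61. For opn1lw2 the interaction was -0.03 on the log2 scale (SE 0.31) and for ptgdsb -0.10 (SE 0.15), and neither was called. Innate immune genes had 40 rises in MZ and 34 in het fish, and photoreceptor genes had 46 and 51 falls.

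For cytosolic ribosomal proteins 78 genes rose in MZ fish and 39 in het fish, and 78 of 80 changed more upward in MZ fish, or 69 with the length trend removed. The CPM of rpl38 averaged 503 in het fish at 5 dpf and 619 at 15 dpf, so the MZ libraries started lower and ended higher. For oxidative phosphorylation 56 of 93 genes changed more upward in MZ fish, or 22 with the length trend removed. In het fish 9 of 93 tested genes of that list rose and 23 fell, with a median log2 fold change of -0.12. For the proteasome 17 of 51 changed more upward in MZ fish, or 5 with the length trend removed, and in het fish 25 rose and 1 fell. The 17 were 9 without MZ 15 dpf replicate 2 or het 15 dpf replicate 2, and 11 without MZ 15 dpf replicate 3, MZ 5 dpf replicate 3, het 15 dpf replicate 1 or het 5 dpf replicate 2. For neurons and synapses 38 of 64 changed more downward in MZ fish and 0 more upward, with 10 falls among 61 tested in het fish, and the 38 were 27 with the length trend removed and 24 without het 5 dpf replicate 1. For the lens 27 of 61 changed more upward, which was 7 with the length trend removed and 0 in 1 fit over all libraries. In fast muscle 21 of 45 genes changed more downward, led by ttnb, whose CPM averaged 170 and 72.9 in het fish at 5 and 15 dpf. Its interaction was -2.55 (SE 0.22, adjusted p = 1.65e-06), or -1.55 with the length trend removed.

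Genes of the clock list are long, with a median deposited length of 3091 bases, and long genes fell further in MZ than in het fish. The list showed 8 upward and 20 downward interactions among 46 genes. The largest belonged to per2, a clock gene that light induces in zebrafish. Its CPM in MZ fish was 70.6, 71.9 and 72 at 5 dpf and 76, 68.8 and 67.8 at 15 dpf, while in het fish it averaged 4.63 at 5 dpf and 85.2 at 15 dpf. The interaction was -4.31 on the log2 scale (SE 0.18, adjusted p = 2.81e-11), and the wide gap between the genotypes lay at 5 dpf. The immediate early genes junba and fosb, which respond within minutes to light, handling and other stimuli, showed the same layout. The CPM of junba averaged 13 and 86 in het fish at 5 and 15 dpf and lay between 46.1 and 88.7 in every MZ library, with an interaction of -3.16 (SE 0.25, adjusted p = 8.23e-07). For fosb the interaction was also -3.16 (SE 0.45, adjusted p = 0.00018). In MZ fish the log2 fold change with age was -0.04 for per2 and -0.37 for junba, neither called. With the length trend removed these values were 0.43 (adjusted p = 0.00234) and -0.56 (adjusted p = 0.0115), both called. The interactions of per2 and junba in that fit were -3.95 and -3.27, both still called. The hour and handling of the 5 dpf groups are not given, and their part in these results was not tested.

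The other interactions named by rule were spread over functions. The hepatic lipase gene lipca rose in both genotypes, from between 1.07 and 2.58 CPM to between 8.3 and 15.3 in MZ fish and from an average of 0.0751 to 9.68 in het fish, an interaction of -4.43 (SE 0.76, adjusted p = 0.000854). With the het libraries at 5 dpf so close to 0 that value depends on the prior count, and it ran from -5.16 to -3.80 with a library left out. The gene hspa12a, of the heat shock protein family, fell in MZ fish from between 11.9 and 14.1 CPM to between 0.951 and 1.49, while het fish averaged 1.27 and 1.01 (interaction -3.14, SE 0.50, adjusted p = 0.000461). The largest upward interaction was that of mucms1, listed at 0 in all 3 MZ libraries at 5 dpf while het fish averaged 7.42 CPM at 5 dpf and 6.47 at 15 dpf (adjusted p = 0.000203). The caspase-family gene caspbl rose from between 0.199 and 0.328 CPM to between 9.05 and 10.1 in MZ fish and from 2.39 to 10 on average in het fish (interaction 3.11, SE 0.37, adjusted p = 2.92e-05).

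For 3 further genes the genotypes moved in opposite directions. The C-reactive protein gene crp went from between 7.28 and 9.01 CPM to between 35.2 and 36.5 in MZ fish, and from 67.7 to 33.3 on average in het fish (interaction 3.08, SE 0.38, adjusted p = 4.37e-05). The ammonium transporter gene rhcga, known in zebrafish from skin ionocytes and gills, went from between 45.4 and 62.6 CPM to between 144 and 196 in MZ fish, and from 369 to 134 in het fish (interaction 2.92, SE 0.18, adjusted p = 3e-08). The small GTPase gene arf4b went from between 3.11 and 4.1 CPM to between 5.08 and 9.42, and from 20.6 to 5.23 in het fish (interaction 2.82, SE 0.30, adjusted p = 8.57e-06).

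Several of the largest falls with age were deeper in MZ fish, which began from higher levels. The CPM of fbxo32 averaged 33.6 in het fish at 5 dpf and 0.789 at 15 dpf, with an interaction of -1.94 (SE 0.42, adjusted p = 0.00446). That of pdk2b averaged 198 and 27, with an interaction of -1.97 (SE 0.20, adjusted p = 5.14e-06). That of cyp24a1 averaged 11.4 and 1.15, with an interaction of -2.33 (SE 0.50, adjusted p = 0.00418) that lost its call in 1 of 12 fits that left out a library and in 1 fit over all libraries. By contrast klhl24b averaged 71.4 and 4.14 in het fish, and its interaction of 0.31 (SE 0.29) was not called. Nor was that of klhl38b, at -1.42 (adjusted p = 0.535), a gene at the floor in MZ fish at 15 dpf. The interaction of upp2 was not called either, and was -0.64 (adjusted p = 0.443) with the length trend removed.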

How the data were processed

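The values used are raw read counts, whole numbers without normalisation, which the authors deposited as 1 table with 18 library columns and a length for each gene name. Per the submitters' processing notes, which give no role or order, the tools were cutadapt, STAR 2.5.4b and featureCounts 1.6.3 of Subread, and the build was GRCz10. Strand setting and handling of multiply mapped reads are not given in the sources used here, so overlapping genes and near-identical copies are uncertain. Per the labels' protocols, total RNA was isolated with Trizol and made into SMARTer libraries. Of 28870 gene names, 1231 carry a copy suffix and hold 1.27% of counts.

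Counts were tested with edgeR 4.0.16 in R 4.3.3, using filterByExpr (minimum count 10), TMM factors, glmQLFit and glmQLFTest without the robust option, and Benjamini-Hochberg adjustment over all genes tested. Fits used the groups compared only. The interaction was the change in MZ minus the change in het fish. The SE is the absolute log2 fold change divided by the square root of F. CPM used TMM factors over all 18 libraries. Data were simulated at the depths of the MZ comparison, with the same spread for every gene, near the common coefficient of variation of 0.131. There 24% of 1.5-fold changes and 87.5% of 2-fold changes were called, with 9 false calls. Genes with a wider spread than the common one were not simulated, so these rates do not hold for them. Of the 19650 genes tested there, 50 were changed by 1.5-fold and 48 each by 2-fold, 4-fold and 8-fold. In the MZ comparison itself 57% of genes were called. The adjustment depends on the share of genes that change, so the sensitivity at that share was not tested. The alternatives were DESeq2 1.42.0, edgeR's RLE size factors, 2 other filters, a robust fit, 1 fit over all libraries, a replicate block, each library left out, and removal of a lowess trend (span 0.3) on gene length. Intervals and floors (3 counts) cover counting error only.

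The 37 gene lists and the rules for naming genes were chosen with earlier results of these data known. Named were the 8 largest called rises and 8 falls with plain symbols, non-overlapping CPM and a mean of at least 10 CPM, the 3 largest each way with a group at the floor, the 3 largest each way in each list, the 5 largest interactions of each sign, the 5 most abundant called genes each way, and all members of the globin, SCPP and pituitary lists with scospondin, urp1 and urp2, of which those that bear on the text are given. Some items are not reported here. No genome came with the data used here, so no sequence or coordinate is given. The labels name no shared animal, so the numbers were not taken as pairs. Deviations of same-numbered libraries from their group means correlated at 0.134, 0.0879 and 0.0142.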

Additional observations from a re-analysis of the deposited data

Results flagged for a closer look

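Each gene below had a change from 5 to 15 dpf that differed between the genotypes by the test of the difference itself, the interaction in edgeR's quasi-likelihood fit over 12 libraries (adjusted p under 0.05). A value is the log2 change in MZ fish minus that in het fish, so a positive one means a change more upward in MZ fish.

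The largest positive value was that of mucms1 at 10.82, a fitted value that depends on the prior count because every MZ library at 5 dpf had 0 counts. It was followed by caspbl at 3.11, crp at 3.08, rhcga at 2.92 and arf4b at 2.82. The negative values named by rule were those of lipca at -4.43, per2 at -4.31, junba and fosb at -3.16 each and hspa12a at -3.14. That of lipca also depends on the prior count, since het fish at 5 dpf averaged 0.0751 CPM, and with a library left out it ran from -5.16 to -3.80, so its order against per2 is not fixed.

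Among digestive, liver and lipid genes the difference was 2.48 for sycn.1, 1.74 for cuzd1.1, 2.29 for c3a.2, 1.30 for apoa4a, -1.29 for mep1b and -0.74 for srebf2. Among muscle genes it was 2.09 for actc1a, 1.07 for myl10, -0.86 for atp2a1, -1.10 for myhz1.1, -1.50 for tnni2a.3, -2.38 for ttna and -2.55 for ttnb. Among genes of the nervous system it was -1.54 for cacna1aa and -1.16 for gfap.

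Among genes of skeleton and notochord it was -1.62 for col11a2, -1.38 for col2a1a, 0.75 for ctsk, 0.88 for cav2, 0.46 for sparc and -1.59 for spp1, and for clu of the Reissner fibre axis it was 0.69. Among skin, immune and proteasome genes it was 0.93 for krt17, 0.92 for pkp1b, 1.85 for cd74a and -1.96 for psme4a. Among ribosomal and mitochondrial genes it was 1.11 for rpl38, 0.99 for rpl30 and 0.79 for cycsb. Among replication genes it was 1.48 for gins2, 1.21 for mcm5 and 0.86 for hells.

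Among clock, stress and hormone genes it was 1.55 for dbpb, 0.76 for nr1d2a, -1.31 for cry1ba, -0.77 for tefa, 1.00 for fkbp5, -0.73 for ddit3, 0.96 for klf9, -1.35 for gh1 and -0.96 for irs2b. Among the largest falls with age it was -1.94 for fbxo32, -1.97 for pdk2b, -2.33 for cyp24a1 and -0.87 for nupr1.

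With a library left out, the call was lost in 5 of 12 fits for gh1, in 2 of 12 for klf9 and in 1 of 12 each for cyp24a1 and nupr1. With the length trend removed it was lost for irs2b (-0.53, adjusted p = 0.106), klf9 (0.83, adjusted p = 0.0601) and srebf2 (-0.45, adjusted p = 0.0538), in the robust fit for c3a.2, and in 1 fit over all libraries for col2a1a, cyp24a1 and fkbp5. Among those that kept their call, removing the length trend moved the value to -0.57 for atp2a1, -0.99 for cacna1aa, 0.52 for cycsb, -0.71 for myhz1.1, 0.65 for rpl30 and -1.33 for ttna. That of col2a1a was -0.85 without het 15 dpf replicate 3.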

How the results depend on the processing

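The count of MZ calls stayed within 1.5 times of 11269 in every fit run, from 9326 with at least 50 counts in 3 libraries to 11836 with no filter, and from 9793 to 11536 with a library left out. The count of downward interactions was 1194 with the length trend removed, 1235 when het 5 dpf replicate 1 was left out and 2521 when MZ 15 dpf replicate 1 was, the lowest and highest of such fits. Among lists, the median turned sign for Bone formation and resorption with the length trend removed (0.01), for Motile cilia (0.14) and Germ line and oocyte (-0.03) with at least 50 counts in 3 libraries, for Notochord and caveolae without MZ 15 dpf replicate 1 (0.12, lowest of the fits with a library left out -0.18) or replicate 3 (0.02), and for Lens, from -0.01, with RLE size factors, DESeq2 and 1 fit over all libraries (0.04 each) and without MZ 15 dpf replicate 1 (0.08), MZ 15 dpf replicate 2 (0.05) or MZ 5 dpf replicate 3 (0.06). The median of Photoreceptor was lower than that of Cartilage matrix with the length trend removed (-1.25 against -0.98) and with the replicate block (-1.20 against -1.18). It was also lower without MZ 15 dpf replicate 1 (-1.16 against -1.03) or replicate 3 (-1.33 against -1.22). The same held without MZ 5 dpf replicate 2 (-1.18 against -1.14) or replicate 3 (-1.24 against -1.19). It was higher without MZ 15 dpf replicate 2 (-1.09 against -1.17) or MZ 5 dpf replicate 1 (-1.13 against -1.20). The cause was not tested. The replicate block gave 11455 MZ calls, 7202 het calls and 3778 interactions. Of 6 libraries, 5 correlated best with their own number. Deviations from a group mean cancel out over the libraries of the group, so these matches are not independent and do not decide on pairing. Depth limits genes under about 1 CPM, and small folds.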
